A study of Mus musculus with 2 samples.

Results

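The proteasome genes of mouse hippocampus are described here from total RNA sequencing. They were chosen by name: a protein-coding gene belongs if its symbol starts with Psma, Psmb, Psmc, Psmd, Psme, Psmf or Psmg and goes on with a number. The rule found 50 of 22028 annotated protein-coding genes. The study holds 1 group, female B6CASTF1/J mice aged 36 days, with 2 libraries that the labels number as biological replicates 2 and 1, each from 300 ng of RNA. These mice are the first-generation hybrid of C57BL/6J and CAST/EiJ, and the labels call the tissue a layer of hippocampus and give no treatment. The labels give the libraries separate biosamples but 1 donor identifier, so the SDs below measure the spread between these samples, which may be technical. Summed expected counts were 30125183 in replicate 2 and 32443497 in replicate 1, and no comparison of conditions was possible.

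The proteasome is the protease that degrades most ubiquitin-tagged proteins of the cell. Its 20S core is a barrel of stacked alpha and beta rings, with the active sites inside on the beta subunits encoded by Psmb5, Psmb6 and Psmb7. The 19S cap binds the ubiquitin chain, removes it and feeds the unfolded protein into the barrel with a ring of ATPases. Interferon-exposed cells and lymphoid cells replace the 3 catalytic subunits with those of Psmb8, Psmb9 and Psmb10, which form the immunoproteasome. In neurons the proteasome is known for its part in turning over synaptic proteins.

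The members fall into 7 alpha ring genes, 7 constitutive beta ring genes, 3 immunoproteasome genes, 9 genes of the 19S base, 8 of the 19S lid, 7 assembly chaperones, 4 activators and the inhibitor gene Psmf1. A further 2 encode 20S subunits of testis and thymus (Psma8 and Psmb11), and 2 fit the name rule without encoding a standard subunit (Psmc3ip and Psme2b). The alpha, beta, base and lid genes are called the 31 core subunit genes below. The same name pattern also matched 4 pseudogenes, which had 0 to 2 counts in either gene table and were left out.

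The catalytic subunits work through a threonine that becomes the first residue once the propeptide is cut off. The coding sequence from that threonine onward is shown for each immunoproteasome gene above its constitutive counterpart, because the levels of these pairs are compared next. Each stretch holds 45 bases of the coding strand, read from the GENCODE M21 transcripts, with the threonine codon in capitals.
Psmb8: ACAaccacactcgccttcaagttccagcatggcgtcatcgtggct
Psmb5: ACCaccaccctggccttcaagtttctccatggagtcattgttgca
Psmb9: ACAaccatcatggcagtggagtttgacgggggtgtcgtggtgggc
Psmb6: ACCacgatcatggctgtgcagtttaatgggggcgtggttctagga
Psmb10: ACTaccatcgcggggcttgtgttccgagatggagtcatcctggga
Psmb7: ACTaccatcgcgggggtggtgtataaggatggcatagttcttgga
The Psmb8 stretch lies at chr17:34199302-34199346 on the plus strand of mm10, the Psmb9 stretch at chr17:34185753-34185797 on the minus strand and the Psmb6 stretch at chr11:70525885-70525929 on the plus strand. The other stretches cross an intron on the minus strand: Psmb5 between bases 54616798 and 54617814 of chromosome 14, Psmb10 between 105937574 and 105937705 of chromosome 8, and Psmb7 between 38642258 and 38643384 of chromosome 2. The threonine is residue 73 of the encoded protein for Psmb8, 60 for Psmb5, 21 for Psmb9, 34 for Psmb6, 40 for Psmb10 and 44 for Psmb7. Within the stretch, 35 of 45 bases were the same in Psmb8 and Psmb5, 33 in Psmb9 and Psmb6, and 32 in Psmb10 and Psmb7. From the threonine codon to the stop, aligned coding identity was 68.5%, 62.9% and 62.0% for these pairs in the same order. Between constitutive genes of different sites it lay between 44.2% and 49.3%, so each immunoproteasome gene is closer to its counterpart than the constitutive genes are to each other.

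In this tissue the constitutive catalytic genes far outweighed 2 of the 3 immunoproteasome genes, and Psmb10 stood apart. Levels are TPM, a count scaled to RNA length and library size, from the gene table unless said otherwise. Psmb8, which replaces the chymotrypsin-like subunit, had 0.98 TPM (25 counts) in replicate 2 and 1.08 TPM (26 counts) in replicate 1. Its counterpart Psmb5 had 87.7 TPM in replicate 2 and 92.2 TPM in replicate 1. Psmb8 was thus 1.13% ± 0.038 of the pair (SD, n = 2). Psmb9, which replaces the caspase-like subunit, had 0.82 TPM (17 counts) in replicate 2 and 0.49 TPM (16 counts) in replicate 1. Its counterpart Psmb6 had 75.5 TPM in replicate 2 and 77.2 TPM in replicate 1, which left Psmb9 at 0.853% ± 0.31 of the pair (SD, n = 2). The 2 libraries agree within the counting interval for both low genes. The log2 ratio of replicate 2 over replicate 1 was 0.02 for Psmb8 (95% exact binomial interval -0.83 to 0.87) and 0.16 for Psmb9 (-0.91 to 1.24), where the interval covers counting error only.

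Psmb10, which replaces the trypsin-like subunit, had 27.1 TPM (352 counts) in replicate 2 and 27.6 TPM (386 counts) in replicate 1. Its counterpart Psmb7 had 79.9 TPM in replicate 2 and 85.7 TPM in replicate 1, so Psmb10 made up 24.8% ± 0.66 of that pair (SD, n = 2). This share was lower when only protein-coding transcripts were summed. The single protein-coding transcript of Psmb10 had 5.23 TPM in replicate 2 and 5.18 TPM in replicate 1, against 79.3 TPM in replicate 2 and 85.3 TPM in replicate 1 for the coding transcript of Psmb7. Counted that way, Psmb10 was 5.96% ± 0.33 of the pair, and 9.004% ± 0.99 in the second quantification, a separate deposited estimate from the same libraries (SD, n = 2 each). The Psmb8 share by coding transcripts was 0% in replicate 2, where all 25 counts were given to a retained-intron transcript, and 0.999% in replicate 1. The Psmb9 share by coding transcripts was 0.916% ± 0.31 (SD, n = 2), within the spread of its whole-gene share.

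**Figure D1:**
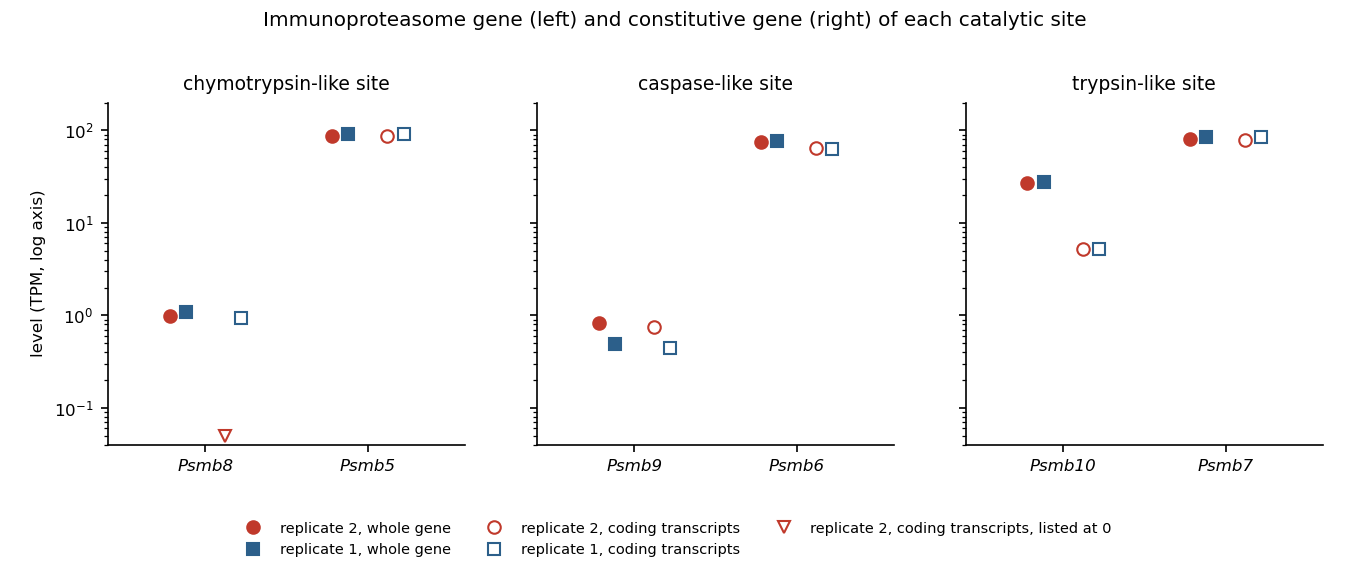
Level in TPM (log axis) of the immunoproteasome gene, left, and the constitutive gene, right, of each catalytic site, 1 point per library. Filled points are whole genes and open points protein-coding transcripts alone. Psmb10 lies at 27.1 and 27.6 TPM as a gene and at 5.23 and 5.18 TPM by its coding transcript, and the triangle marks the Psmb8 coding transcripts listed at 0 in replicate 2.

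Most of the Psmb10 RNA was assigned to transcripts without a coding sequence. The leading transcript was Psmb10-205, annotated as a retained intron, with 13.2 TPM in replicate 2 (authors' deposited bounds 8.46 to 17.0) and 11.3 TPM in replicate 1 (6.68 to 15.3). The bounds of the coding transcript Psmb10-201 were 3.85 to 5.98 TPM in replicate 2 and 3.58 to 5.99 TPM in replicate 1, below those of Psmb10-205 in both libraries. A noncoding processed transcript, Psmb10-203, took another 7.61 TPM in replicate 2 and 8.52 TPM in replicate 1. Of the 554 bases of Psmb10-205, 494 (89.2%) lie in exons of the coding transcript and 60 lie outside them, and it keeps 0 introns whole. Psmb10-205 therefore shares most of its sequence with the coding transcript at the 3′ end of the gene. Most of the 1311 bases of the coding transcript lie outside Psmb10-205. The split of reads between these transcripts is an estimate of the authors' software. By counts the order was different: Psmb10-205 received 135 expected counts in replicate 2 and 121 in replicate 1, while the longer Psmb10-201 received 142 in replicate 2 and 148 in replicate 1.

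Markers of the cells and signals known for the immunoproteasome differed widely in level. Of 6 lymphocyte marker genes 0 were detected, which here means at least 1 TPM in both libraries, and Cd3d, Cd3e and Cd8a had 0 counts. They summed to 0.22 TPM in replicate 2 and 0.03 TPM in replicate 1. The 7 microglial markers were all detected and summed to 137 TPM in replicate 2 and 138 TPM in replicate 1. Of 11 interferon-stimulated genes 7 were detected, led by B2m, the light chain of MHC class I, with 40.5 TPM in replicate 2 and 43.0 TPM in replicate 1. Those not detected were Ifit3 (0.75 and 0.94 TPM in replicates 2 and 1), Isg15 (0.48 and 0.78), Irf7 (0.22 and 0.47) and Ifit1 (0.24 and 0.32). Tap1, the peptide transporter gene beside Psmb9, had 1.54 TPM in replicate 2 and 1.39 TPM in replicate 1. Tap1 overlaps Psmb9 by 212 exonic bases on the opposite strand, and whether the authors' counting used strand is not given in the sources used here, so reads of the overlap cannot be told apart. In bulk tissue, fewer cells of a type and less RNA per cell cannot be told apart.

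Most proteasome genes were well expressed. Of the 50 members 45 were detected, against 57.6% of all protein-coding genes. All 31 core subunit genes were among them, at mean levels between 25.0 and 115 TPM. Of these, 23 lay in the highest 10% of protein-coding genes by mean TPM, a tier that began at 44.0 TPM. The 5 members that were not detected were Psmb8, Psmb9, Psma8, Psmb11 and Psme2b. In the second quantification 47 were detected, with Psmb8 at 1.47 TPM in replicate 2 and 1.61 TPM in replicate 1 and Psmb9 at 1.70 TPM in replicate 2 and 1.06 TPM in replicate 1. Levels and ranks below are those of the gene table, the first quantification, unless the second is named.

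**Figure D2:**
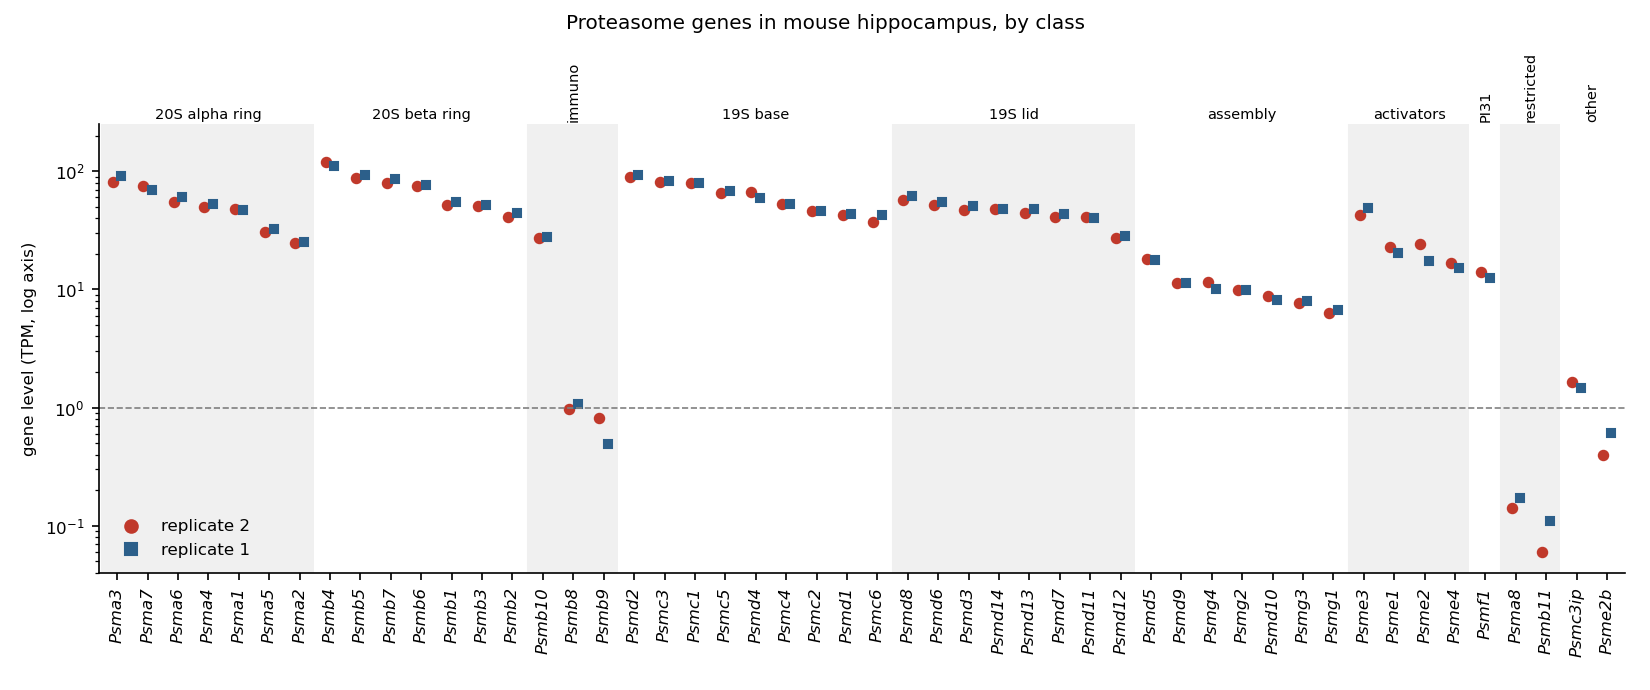
Level in TPM (log axis) of all 50 members by class, ordered by mean level within each class, with replicate 2 as circles left of replicate 1 as squares. The dashed line marks 1 TPM. The 31 core subunit genes lie between 24.8 and 120 TPM in the single libraries, above all 7 assembly chaperones, and 5 genes have at least 1 point below the line.

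The alpha ring gates entry to the 20S barrel. Its 7 genes had a median of 51.1 ± 2.0 TPM (SD, n = 2) and spanned 25.0 to 86.2 TPM. The highest was Psma3 (alpha7) with 80.6 TPM in replicate 2 and 91.8 TPM in replicate 1. Its expected counts of 1628 and 1826 were not whole, so some of its reads also matched other genes. The lowest core gene of all was Psma2 (alpha2) with 24.8 TPM in replicate 2 and 25.3 TPM in replicate 1, followed upward by Psma5 (alpha5) among the lowest 3, with 30.8 TPM in replicate 2 and 32.5 TPM in replicate 1. Psma7, Psma6, Psma4 and Psma1 lay between 47.6 and 71.9 TPM on average. Psma8, which replaces Psma7 in testis, had 0.14 TPM (3 counts) in replicate 2 and 0.17 TPM (4 counts) in replicate 1. Of 6 marker genes of testis and thymus 0 were detected, with a sum of 0.61 TPM in replicate 2 and 0.53 TPM in replicate 1.

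The beta ring was the most abundant class, with a median of 76.3 ± 1.2 TPM (SD, n = 2) over its 7 constitutive genes. Psmb4 (beta7, a structural subunit) was the highest core gene of the gene table with 120 TPM in replicate 2 and 110 TPM in replicate 1, and Psmb5 was the third highest there. In the second quantification Psma3 averaged 189.8 TPM and stood above Psmb4 at 179.6 TPM, and Psmb5, at 118 TPM, was number 9 of the 31. The 3 catalytic genes were close together, at 89.96 ± 3.2 TPM for Psmb5, 82.8 ± 4.1 for Psmb7 and 76.3 ± 1.2 for Psmb6 (SD, n = 2 each). Their highest mean was 1.18 times the lowest, whereas the 4 structural genes of the ring spread over 2.69-fold, down to 42.7 TPM for Psmb2 (beta4), with Psmb1 (beta6) at 53.5 ± 2.4 and Psmb3 (beta3) at 51.0 ± 0.76 TPM (SD, n = 2 each). Psmb11, the thymic counterpart of Psmb5, had 0.06 TPM (6 counts) in replicate 2 and 0.11 TPM (11 counts) in replicate 1. It lies 3410 bases from Psmb5 on chromosome 14, so these neighbours differed by far more than their replicate spread.

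The 19S base holds the ATPase ring and the large scaffold subunits, and its 9 genes had a median of 62.3 ± 4.4 TPM (SD, n = 2). Psmd2 (Rpn1, a docking site for ubiquitin shuttles) was the second of all core genes in the gene table, with 88.8 TPM in replicate 2 and 92.7 TPM in replicate 1, and number 6 in the second quantification, at 127 TPM. The 6 ATPase genes Psmc1 to Psmc6 ran from 39.7 TPM for Psmc6 to 82.1 TPM for Psmc3, a 2.07-fold range around a median of 59.5 TPM. The products of these 6 genes occupy 1 place each in the same ring. Psmd4, the ubiquitin receptor Rpn10, averaged 62.9 ± 5.2 TPM and Psmd1 (Rpn2) averaged 42.8 ± 0.76 TPM (SD, n = 2 each). Adrm1, which encodes the other ubiquitin receptor of the base and falls outside the name rule, averaged 39.2 ± 0.56 TPM (SD, n = 2).

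The lid strips ubiquitin from the substrate. Its 8 genes had the narrowest range of the 4 core classes, from 27.7 to 59.3 TPM (2.14-fold), with a median of 46.8 ± 1.2 TPM (SD, n = 2). Psmd14, the deubiquitinase Rpn11, averaged 48.0 ± 0.51 TPM (SD, n = 2), near the middle of the lid. Psmd6, Psmd3, Psmd13, Psmd7 and Psmd11 lay between 40.7 and 53.2 TPM on average. Psmd8 (Rpn12) was the highest with 57.1 TPM in replicate 2 and 61.6 TPM in replicate 1. Psmd12 (Rpn5) was the lowest lid gene, and the second lowest core gene, with 27.4 TPM in replicate 2 and 28.1 TPM in replicate 1.

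Genes for proteins that help build the proteasome were lower as a class. The 7 assembly chaperones had a median of 9.88 ± 0.078 TPM (SD, n = 2), and even the highest, Psmd5 (S5b, a chaperone of the base), had only 18.1 TPM in replicate 2 and 17.7 TPM in replicate 1. In the gene table no chaperone reached the lowest core gene. In the second quantification Psmd5 did, averaging 43.9 ± 1.5 TPM against 31.6 ± 1.0 TPM for Psma2 (SD, n = 2 each). The 4 genes Psmg1 to Psmg4, whose products assemble the 20S barrel, averaged 6.50 to 10.8 TPM. Psmd10 (gankyrin) averaged 8.46 TPM and Psmd9 (p27) 11.3 TPM. Pomp, the maturation factor of the beta ring outside the name rule, was higher than all 7, with 68.6 TPM in replicate 2 and 56.1 TPM in replicate 1.

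The activator genes encode caps that can stand in for the 19S complex. Psme3 (PA28 gamma, a nuclear activator) was the highest at 46.0 ± 4.2 TPM. Psme1 and Psme2, whose products form the interferon-inducible PA28 alpha-beta cap, averaged 21.6 ± 2.1 and 20.7 ± 4.8 TPM, and Psme4 (PA200) averaged 15.9 ± 1.1 TPM (SD, n = 2 each). The first 2 of these low genes, Psme1 and Psme2, lie 5911 bases apart on chromosome 14 and had means in the gene table that differed by less than their SDs. In the second quantification they averaged 51.6 ± 10.6 TPM for Psme1 and 28.6 ± 5.2 TPM for Psme2 (SD, n = 2 each), which differ by more. Psmf1, the gene of the proteasome inhibitor PI31, had 14.1 TPM in replicate 2 and 12.5 TPM in replicate 1. Psmc3ip, a partner of PSMC3 known from meiotic recombination, averaged 1.56 TPM. Psme2b, named for its likeness to Psme2, had 0.40 TPM in replicate 2 and 0.61 TPM in replicate 1, with expected counts that were not whole.

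The core genes encode subunits present in fixed numbers in the complex, and their levels were closer together than those of genes at large. The SD of log2 TPM among the 31 core genes was 0.53 in replicate 2 and 0.51 in replicate 1, and the highest mean was 4.59 times the lowest. Among all detected protein-coding genes it was 1.78 in replicate 2 and 1.82 in replicate 1. The 7 assembly chaperones were as close together, with an SD of 0.48 in replicate 2 and 0.46 in replicate 1. In the second quantification theirs was 0.67 in replicate 2 and 0.65 in replicate 1. Whether the fixed numbers of subunits play a part in the spread was not tested. The CCT chaperonin is another ring-shaped complex, and 7 of its genes were matched by name and detected. They had an SD of 0.33 in replicate 2 and 0.34 in replicate 1, and may not cover every subunit. In the second quantification the SD was 0.55 in both libraries for the core genes, and 0.48 in replicate 2 and 0.54 in replicate 1 for the CCT genes. The 76 detected genes of the cytosolic ribosome had an SD of 0.87 in replicate 2 and 0.88 in replicate 1. That last value is uncertain, since 93.4% of the ribosomal genes shared reads with another gene. In the second quantification the ribosomal SD was lower, at 0.69 in replicate 2 and 0.71 in replicate 1. These SDs are descriptions over genes and carry no test.

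Some members shared reads with other genes. Of the 50, 12 (24.0%) had an expected count that was not whole to within 0.005, against 15.3% of detected protein-coding genes. The deposited posterior SD of the count was 35.8% of the count for Psme2b and at most 2.68%, the value of Psma3, for the other 11.

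By scaled counts the 2 libraries were close for every member that could be compared. Ratios below are log2 of replicate 2 over replicate 1 on expected counts scaled with edgeR's TMM factors, for genes averaging at least 100 counts. With 1 library on each side they carry no p-value. Of the 44 members compared, 0 were more than 1.2-fold apart, against 9.30% of 12651 genes. At 1.1-fold the count was 5 of 44 members, against 29.4% of genes. These shares do not match genes by count. The median absolute ratio was 0.071 over the members and 0.083 over 10716 protein-coding genes in the members' range of counts. The median ratio was -0.05 over the members and -0.02 over all genes compared, and the spread of the 2 libraries over 18246 genes gave a biological coefficient of variation of 0.09.

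Small shifts ran mostly one way. Of the 31 core genes 25 had a ratio below 0, against 55.5% of all genes, and so did all 8 lid genes. Class medians were -0.07 for the alpha ring, -0.08 for the beta ring, -0.04 for the base and -0.07 for the lid. The assembly chaperones had a median of 0.02 and the activators 0.09. Spike-in scaling moved the median of all genes up by 0.26, to 0.25, and the members with it, so the ratios are read here relative to all genes. The members' median was -0.03 relative to that of all genes with TMM, and 24 of the 31 core genes lay below the median of all genes. The other 3 scalings shift all genes together, so both values were bound to repeat with them. In the second quantification the median was -0.048 over the members and -0.028 over all genes. There too, 24 of the 31 core genes lay below the median of all genes.

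The 5 members past 1.1-fold, named after their values were seen, lay on both sides of 0. Of all genes 29.4% passed that fold, 14.7% higher and 14.7% lower in replicate 2. The common dispersion of the 2 libraries corresponds to an SD of 0.184 in a log2 ratio. The counting intervals below leave that spread out. Psma6 (alpha1) was lower, with 1129 counts in replicate 2 and 1348 in replicate 1, a ratio of -0.18 (95% interval -0.30 to -0.07). Psme3 was lower too, with 2003 counts in replicate 2 and 2365 in replicate 1, a ratio of -0.17 (-0.25 to -0.08). Psmf1 was higher, with 617 counts in replicate 2 and 562 in replicate 1, a ratio of 0.21 (0.04 to 0.38). Psmg4, a 20S assembly chaperone with 111 counts in replicate 2 and 99 in replicate 1, had the highest ratio, 0.24, with an interval that includes 0 (-0.16 to 0.64). Psme2 had 279 counts in replicate 2 and 264 in replicate 1, a ratio of 0.15 (-0.09 to 0.40). Its TPM lay farther apart, at 24.1 in replicate 2 and 17.3 in replicate 1. Coding transcripts held 46.0% of that TPM in replicate 2 and 75.6% in replicate 1.

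**Figure D3:**
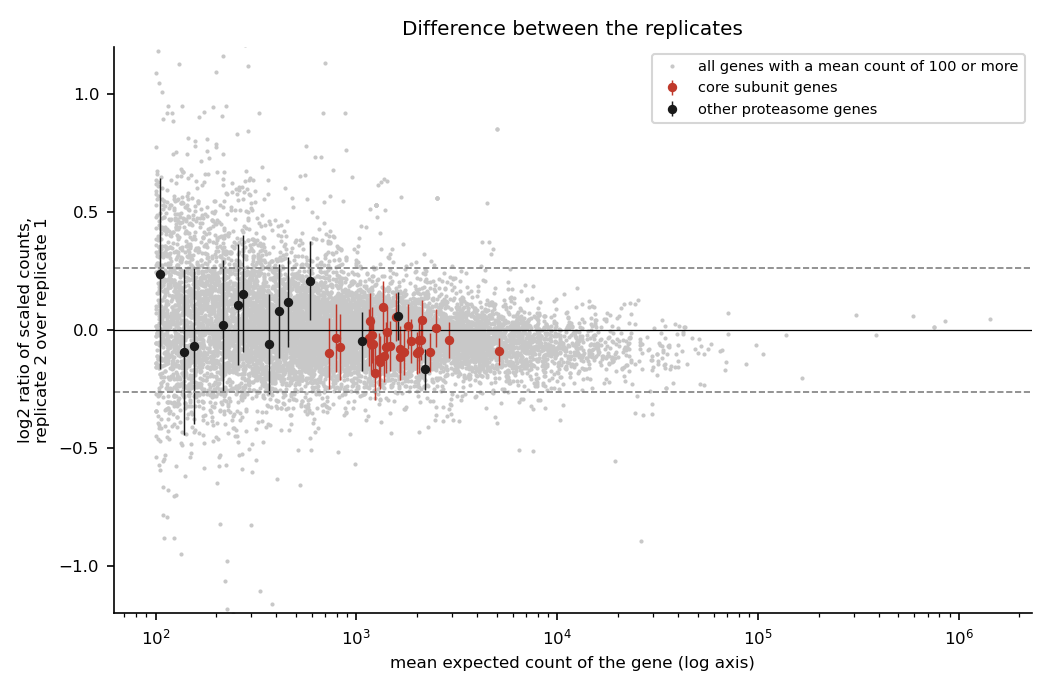
Log2 ratio of scaled counts, replicate 2 over replicate 1, against the mean expected count (log axis). Grey points are all genes averaging at least 100 counts, of which 46 lie beyond the vertical range, and bars on the 44 members are 95% counting intervals. All 44 members lie between the dashed lines at 1.2-fold, from -0.18 for Psma6 to 0.24 for Psmg4.

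Of the marker lists, those of oligodendrocytes and choroid plexus had genes past 1.2-fold, and no proteasome gene compared by scaled counts was past it. The 5 oligodendrocyte markers were all more than 1.2-fold lower in replicate 2, with a sum of 1068 TPM in replicate 2 and 1408 TPM in replicate 1. The 6 choroid plexus markers were all more than 1.2-fold higher, with a sum of 1279 TPM in replicate 2 and 26.2 TPM in replicate 1, of which Ttr made up 1237 TPM in replicate 2 and 20.8 TPM in replicate 1. The 6 neuronal markers summed to 2289 TPM in replicate 2 and 2526 TPM in replicate 1, with ratios between -0.25 and -0.03. The 5 astrocyte and 5 endothelial markers were all detected, with ratios between -0.05 and 0.14. The 6 microglial markers that could be compared had ratios between -0.21 and 0.06. None of the neuronal, astrocyte, endothelial or microglial markers passed 1.2-fold. The part of these markers in the small shifts of the proteasome genes was not tested.

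Genes that work with the proteasome were similarly steady by scaled counts. In the lists of subunits outside the name rule (3 genes), proteasome-bound enzymes (5), transcriptional regulators (5), ubiquitin and its activating enzymes (6), and shuttles with the p97 segregase (8), all 27 genes were detected and 0 passed 1.2-fold, beside 9.30% of all genes. Median ratios were 0.01, -0.12, -0.02, -0.11 and -0.12 in that order.

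The leading genes of these lists show the levels around the proteasome. Pomp and Adrm1 led the subunits outside the name rule, as given above. Among enzymes that bind the complex, Usp14, a deubiquitinase, averaged 62.2 ± 3.4 TPM, and Ecpas, an adaptor of the cap and the barrel, averaged 48.7 ± 1.0 TPM (SD, n = 2 each). The regulators were led by Nfe2l1, the factor that raises proteasome genes when the proteasome is inhibited, with 91.8 TPM in replicate 2 and 93.7 TPM in replicate 1. Akirin2, which carries proteasomes into the nucleus, averaged 39.0 ± 2.7 TPM (SD, n = 2). Ubb, a polyubiquitin gene, was far above the subunit genes and averaged 723 ± 46 TPM (SD, n = 2). Among shuttles, Ubqln2 averaged 92.2 ± 6.9 TPM and Vcp, the p97 segregase, 75.2 ± 3.7 TPM (SD, n = 2 each), in the range of the higher core genes.

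Transcripts annotated as protein-coding carried most of the RNA of most members, but not of all. The 50 members have 278 annotated transcripts, of which 111 are protein-coding and 99 are retained-intron transcripts. Isoforms were compared for the 40 members at 10 TPM or more in both libraries. Coding transcripts took a median of 88.7% of gene TPM over these members and 93.0% over the core genes, against 86.5% over 7171 protein-coding genes passing the same rule. In 18 of the 40 the share was over 90%, against 42.9% of genes. It was under 50% in 1, Psmb10, against 10.3% of genes. In the second quantification it was under 50% in 5 (Psma3, Psmb10, Psmc4, Psmc6 and Psmd13), against 13.3% of genes. The next lowest, in the first quantification, were Psmb4 at 52.5 ± 4.8%, Psmc6 at 52.5 ± 2.1%, Psmd13 at 53.7 ± 2.9% and Psma3 at 55.1 ± 4.6% (SD, n = 2 each).

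The second quantification divided some genes differently. The leading transcript, the one with the highest mean TPM, was the same in both for 34 of the 40 members, and it differed for 6, against 24.2% of genes. A transcript not annotated as protein-coding led 4 members in the second quantification (9.54% of genes) and 1 in the first (7.59% of genes). Psmb10 was the member led that way in both.

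The 6 members with different leaders were Psma3, Psmb1, Psmc6, Psmd13, Psmd5 and Psmd8. Psma3 changed most in its coding share, which was 6.90% in the second quantification and 55.1% in the first. The second gave 77.2 TPM in replicate 2 and 77.3 TPM in replicate 1 to Psma3-201, annotated for nonsense-mediated decay. The first gave that transcript 13.6 TPM in replicate 2 and 15.4 TPM in replicate 1. In the first no transcript of Psma3 dominated, and the libraries had different leaders: Psma3-204 in replicate 2, with 19.6 TPM, and Psma3-208 in replicate 1, with 24.6 TPM. Psmc6 had a coding share of 23.9% in the second and 52.5% in the first, and Psmd13 had 43.5% in the second and 53.7% in the first. In the second, Psmd13 was led by Psmd13-211, annotated for nonsense-mediated decay. There Psmc6 was led on average by the retained-intron transcript Psmc6-203, with 30.5 TPM in replicate 2 and 24.9 TPM in replicate 1, although Psmc6-208 led in replicate 2 and Psmc6-206 in replicate 1.

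The remaining 3 changed between coding transcripts. Psmb1 was led by Psmb1-204 in the second, with 92.6 TPM in replicate 2 and 101 TPM in replicate 1, and by Psmb1-201 in the first, with 42.6 TPM in replicate 2 and 47.7 TPM in replicate 1. These have annotated coding sequences of 420 and 720 bases, so the quantifications differ in the length of the protein they assign to this gene (beta6). Psmd8 was led by Psmd8-201 in the second, with 42.4 TPM in replicate 2 and 58.9 TPM in replicate 1, a transcript that the first listed at 0 in both libraries. Psmd5 was led by Psmd5-202 in the second and by the much longer Psmd5-201 in the first. In the first, Psmd5-202 had 7.93 TPM in replicate 2 and 6.93 TPM in replicate 1, close to the 8.36 and 8.35 TPM of Psmd5-201. Within the first quantification, replicate 2 and replicate 1 had different leaders only for Psma3 and Psme2 among the 40.

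**Figure D4:**
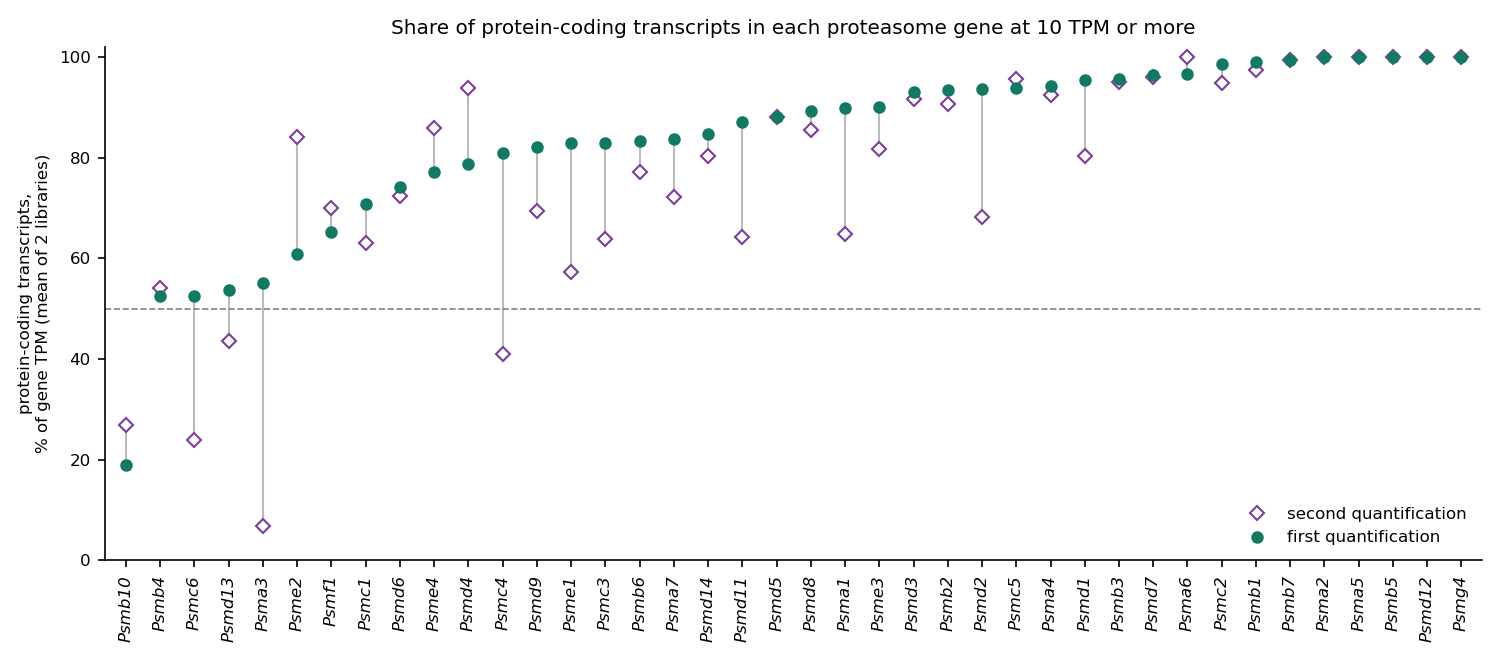
Percent of gene TPM held by protein-coding transcripts (mean of 2 libraries) for the 40 members at 10 TPM or more, with the second quantification as open diamonds and the first as filled circles, ordered by the first. Psmb10 lies below the dashed 50% line in both, at 26.8% in the second and 19.04% in the first, and Psma3 is farthest apart, at 6.90% and 55.1%.

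Whole-gene levels of both quantifications were also set side by side. After both were rescaled over protein-coding genes alone, the median absolute log2 ratio of second over first was 0.16 over the 45 detected members and 0.17 over detected protein-coding genes. Among core genes the ratio ran from -0.51 for Psma2, at 0.70 times its first level, to 0.55 for Psmc6, at 1.47 times.

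Proteasome genes lay on 16 chromosomes, with 10 of the 50 on chromosome 11 and 6 each on chromosomes 2 and 14. Of the 50, 8 (16.0%) start within 1000 bases of a protein-coding gene that runs the other way, against 9.73% of detected protein-coding genes. Psmc2 and Dnajc2 start 32 bases apart, Psma2 and Mrpl32 75 bases, Psmc5 and Ftsj3 75 bases, and Psma7 and Ss18l1 76 bases. In each of these pairs the proteasome gene was the higher one. Psmc2 had 46.1 TPM in replicate 2 and 45.7 TPM in replicate 1, against 12.9 and 13.1 TPM in the same libraries for Dnajc2. Psma2 had 24.8 and 25.3 TPM in replicates 2 and 1, against 11.1 TPM in both libraries for Mrpl32. The other 4 members with such a partner were Psmb1 (Tbp, 137 bases), Psmd10 (Atg4a, 179 bases), Psmg2 (Cep76, 263 bases) and Psme2 (Rnf31, 595 bases). Psmb8 and Psmb9 lie 9956 bases apart on chromosome 17. Other members overlap a gene on the opposite strand in their exons, among them Psmb7 with Nek6 (405 bases), Psmc3ip with Mlx (385 bases), Psmd13 with Sirt3 (342 bases) and Psmc3 with Slc39a13 (215 bases), and reads there cannot be told apart.

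The promoter windows of Psmb8, Psmb9 and their counterparts are shown because these pairs differ most in level. Each window runs from 250 bases before to 50 bases after the RefSeq start on GRCm38.p6, coding strand, and capitals mark a match to a searched motif.
Psmb8: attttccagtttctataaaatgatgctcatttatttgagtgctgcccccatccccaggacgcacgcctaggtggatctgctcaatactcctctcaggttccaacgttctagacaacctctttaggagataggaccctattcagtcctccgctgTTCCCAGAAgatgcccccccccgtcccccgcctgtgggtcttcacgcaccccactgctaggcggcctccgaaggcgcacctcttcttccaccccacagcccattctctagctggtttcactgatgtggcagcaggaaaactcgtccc
Psmb5: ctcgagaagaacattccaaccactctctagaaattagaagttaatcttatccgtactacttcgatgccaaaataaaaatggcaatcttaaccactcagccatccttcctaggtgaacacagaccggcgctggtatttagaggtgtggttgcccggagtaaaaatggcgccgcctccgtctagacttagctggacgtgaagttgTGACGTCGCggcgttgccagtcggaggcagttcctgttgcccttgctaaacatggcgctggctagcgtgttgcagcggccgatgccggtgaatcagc
Psmb9: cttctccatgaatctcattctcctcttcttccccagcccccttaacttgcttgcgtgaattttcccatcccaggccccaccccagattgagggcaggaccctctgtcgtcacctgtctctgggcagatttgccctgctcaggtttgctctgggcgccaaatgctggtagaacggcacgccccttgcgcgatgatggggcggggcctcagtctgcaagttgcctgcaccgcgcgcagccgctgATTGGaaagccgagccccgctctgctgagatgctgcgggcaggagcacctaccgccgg
Psmb6: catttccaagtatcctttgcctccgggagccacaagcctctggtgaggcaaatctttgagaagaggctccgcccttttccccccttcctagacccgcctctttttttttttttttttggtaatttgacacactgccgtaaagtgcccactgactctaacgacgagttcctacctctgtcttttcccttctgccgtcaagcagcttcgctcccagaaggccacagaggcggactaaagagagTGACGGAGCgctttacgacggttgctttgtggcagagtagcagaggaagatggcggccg
The windows are chr17:34197945-34198244 on the plus strand for Psmb8, chr14:54617946-54618245 on the minus strand for Psmb5, chr17:34187281-34187580 on the minus strand for Psmb9 and chr11:70525107-70525406 on the plus strand for Psmb6. Capitals mark TTCNNNGAA in Psmb8 (bases -97 to -89 from the start), TGACNNNGC in Psmb5 (-47 to -39) and in Psmb6 (-9 to -1), and CCAAT, read on the other strand, in Psmb9 (-8 to -4). TGACNNNGC is the core of the element bound by NFE2L1 and NFE2L2, CCAAT that of NF-Y, CCGGAAG that of ETS factors and TTCNNNGAA that of STAT factors. A pattern of GAAA, any 2 bases and GAAA stands for interferon regulatory factors. The RefSeq starts of Psmb8 and Psmb9 lie inside the GENCODE bounds of these genes, and windows at other starts were not searched.

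Windows were found for 42 of the 50 members, and both strands were searched. TGACNNNGC was in 6 of the 42 (14.3%), against 12.5% of 27025 RefSeq windows of that length and 14.4% of those of detected protein-coding genes. CCAAT was in 15 (35.7%), against 37.9% of all windows and 38.7% of those of detected protein-coding genes. CCGGAAG was in 14 (33.3%), against 9.12% of all windows and 17.9% of those of detected protein-coding genes. The GAAA pattern was in 5 (11.9%), against 3.49% of all windows and 2.66% of those of detected protein-coding genes. TTCNNNGAA was in 3 (7.14%), below the 8.47% of all windows and above the 6.48% of those of detected protein-coding genes. A match says only that the letters are present, and these shares carry no test.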

How the data were processed

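Total RNA of 2 hippocampus libraries was analysed, which form 1 group. The authors deposited expected counts per gene and per transcript, which need not be whole, and TPM, per the file headers. They also deposited each transcript's percent of its gene's TPM, lower and upper bounds on TPM and the posterior SD of the count, per the file headers. Estimated counts and TPM of a second quantification were also deposited, per the file headers. The build is mm10 and the annotation GENCODE M21, per the deposited file listing. Strand use was, like the software and its versions, not given in the sources used here; the headers match output of RSEM and, for the second table, kallisto.

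Members were matched by symbol, and the members, gene lists, thresholds and alternatives were chosen with earlier results of these data known. Detection required at least 1 TPM in each library. TMM factors from edgeR 4.0.16 (R 4.3.3) scaled the rounded expected counts, and log2 ratios used a prior count of 0.5. The common dispersion used genes averaging at least 10 counts. Scaling and ratios were tested on simulated data. Intervals on ratios are exact binomial (Clopper-Pearson) at 95% and cover counting error only. Leading transcripts were compared for genes at 10 TPM or more in both libraries with at least 2 transcripts. TPM percentages of coding transcripts sum over transcripts typed protein_coding.

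Full values are given for the catalytic and immunoproteasome genes, the highest and lowest 3 core genes, members under 1 TPM, members led by a noncoding transcript or by different transcripts in the quantifications, and any member past 1.2-fold. Of the lists of partner genes the highest 2 by mean TPM are named, except 1 gene that is not reported here. Other members are given by range, and class extremes were named after their values were seen. Alternatives were DESeq2 1.42.0 size factors, total and spike-in scaling, count and TPM minimums, other folds, the second quantification and each library alone. Python 3.11.15 with pandas 2.3.3, numpy 2.4.6, scipy 1.17.1 and biopython 1.88 did the rest.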

Additional observations from a re-analysis of the deposited data

How the results depend on the processing

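Of 103 alternative values for 22 results, 61 kept their direction and stayed within the replicate spread or within 1.5 times a count. For median levels, SDs of log2 TPM and pair shares, each library alone lies within that spread of the mean by construction. Those alternatives could only count among the 61 and show nothing about stability. For median log2 ratios the spread used was 0.184, the SD of a single gene's ratio, which is wide for a median of several genes. DESeq2 and total-count scaling shift all genes by -0.016 and 0.032. Only a change of sign could therefore have taken their median ratios out of the 61. No paired analysis was possible because the design holds 1 group. Spike-in scaling turned the median log2 ratio of the members to 0.22, of the alpha ring to 0.19, of the beta ring to 0.18, of the base to 0.22 and of the lid to 0.20, and gave 0.28 for the assembly chaperones and 0.35 for the activators. The median of all genes was 0.25 with that scaling. A scaling shifts all genes together, so the members' -0.03 relative to all genes was bound to repeat. The second quantification turned the median of the assembly chaperones to -0.064. Members past 1.2-fold numbered 1 of 44 with total counts (10% of all genes), 14 with spike-in scaling (44.5% of all genes, a shift of all genes) and 1 with the second quantification (9.19% of genes), and 5 passed 1.1-fold (29.4% of genes). The cause of the other moves was not tested.

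TPM depends on what it is scaled to. Median levels in the second quantification, in the second quantification scaled to protein-coding genes and in the gene table scaled to protein-coding genes were 103, 133 and 118 TPM for the alpha ring, 118, 152 and 177 for the beta ring, 103, 132 and 144 for the base, 80.0, 103 and 108 for the lid, 18.0, 23.1 and 22.9 for the assembly chaperones, 40.1, 51.5 and 49.1 for the activators, and 1.65, 2.12 and 2.38 for the immunoproteasome genes. The SD of log2 TPM among core genes was 0.55 in the second quantification and 0.51 on log2(TPM + 1), against a mean of 0.52. The Psmb8 share of its pair was 1.28% in the second quantification, 0.499% by coding transcripts and 0.791% by coding transcripts of the second, and the Psmb10 share was 26.8%, 5.96% and 9.004% in the same order. The sums over coding transcripts were added after seeing the data. Members led by a transcript not annotated as protein-coding numbered 4 in the second quantification and 1 in the first. Detected members numbered 45 in replicate 2 alone, 46 in replicate 1 alone and 47 in the second quantification. Depth limits Psmb8, Psmb9, Psma8, Psmb11 and Psme2b, each at 26 counts or fewer.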
